A study of Rattus norvegicus with 16 samples.

Results

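Neutrophil granule protein genes were examined in whole blood of 16 adult male Sprague-Dawley rats, all saline controls. The 10 genes were chosen by name, as textbook cargo of the granule classes, and all 10 were found as a single entry each among the 18031 genes listed for every library. Primary (azurophil) granules were represented by 4 genes: Mpo (ENSRNOG00000008310), Elane (ENSRNOG00000033685), Prtn3 (ENSRNOG00000029814) and Ctsg (ENSRNOG00000020647). Secondary (specific) granules were represented by 5 genes: Camp (ENSRNOG00000020733), Ltf (ENSRNOG00000031779), Lcn2 (ENSRNOG00000013973), Mmp8 (ENSRNOG00000009907) and Ngp (ENSRNOG00000024330). Tertiary (gelatinase) granules were represented by 1 gene, Mmp9 (ENSRNOG00000017539). The rats were 85 to 90 days old and received 4 saline injections of 1 ml/kg, spaced 2 h apart, and blood was drawn from the heart 3 h after the last one. All 16 libraries form 1 group, each from its own animal, so the study's treated groups were not compared and expression was followed from rat to rat. The study repeated its control experiment on separate dates, and the sample labels do not give the repeat of each library. Differences between rats may therefore include differences between repeats. Every library was made from globin-depleted, polyadenylated RNA of frozen whole blood and sequenced from both ends.

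Neutrophils carry their antimicrobial proteins and proteases ready-made in granules that form one after another while the cell matures in the bone marrow. Primary granule genes are transcribed at the promyelocyte stage, secondary granule genes at the myelocyte and metamyelocyte stages, and gelatinase last. Most of this transcription has ended before a neutrophil enters the blood, and Lcn2 is also known as an acute-phase protein of other tissues.

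The libraries held 21466776 to 31189549 counts, and 3 counts, the floor used for detection, correspond to 0.0962 to 0.140 CPM. Several libraries stood apart in transcripts of other tissues. Control 2 held the highest liver marker sum (479625 normalized counts over Alb, Apoa1, Ttr, Fgb, Serpina1 and Tf, against a median of 13633.5). Albumin (Alb) was also raised in control 8, at 11402 normalized counts, control 7 (3102) and control 5 (1793), against a median of 17.5 and 5.00 in control 14. Control 12 held the highest thymus sum (5770 against 33.4 over Rag1, Rag2, Dntt and Ptcra) and the highest fat sum (4030 against 739 over Adipoq, Plin1, Cfd and Fabp4). Most of that median fat sum was Cfd (median 638), which is also listed as granule cargo below. Adipoq alone was at 1042 in control 12 against a median of 1.32. The neutrophil markers S100a8 and S100a9, which encode the calprotectin subunits, were abundant everywhere, at 8347 to 382314 and 17699 to 601942 normalized counts. In bulk blood, fewer neutrophils and less RNA per neutrophil cannot be told apart. Normalized counts are counts divided by a size factor for each library, and they were not divided by transcript length, so levels are compared between libraries and not between genes.

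Granule protein transcripts differed from rat to rat far more than the typical gene. The coefficient of variation (the SD as a percent of the mean) was 78.0% to 257% for the 6 members with a mean of at least 10 normalized counts, while the median over 12531 genes at that level was 29.1%. Among the mature neutrophil genes at that level listed below it ran from 29.7% (Selplg) to 109% (Il1r2), with 101% for S100a8 and 75.9% for Csf3r. A wide spread was therefore not particular to granule protein genes. The other 4 members, Ltf, Mpo, Prtn3 and Ctsg, had means under 10 normalized counts. Thus, 3 of 4 primary granule genes were near or below the detection floor in most libraries, while 4 of 5 secondary granule genes and the tertiary gene were well above it in all 16.

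**Figure D1:**
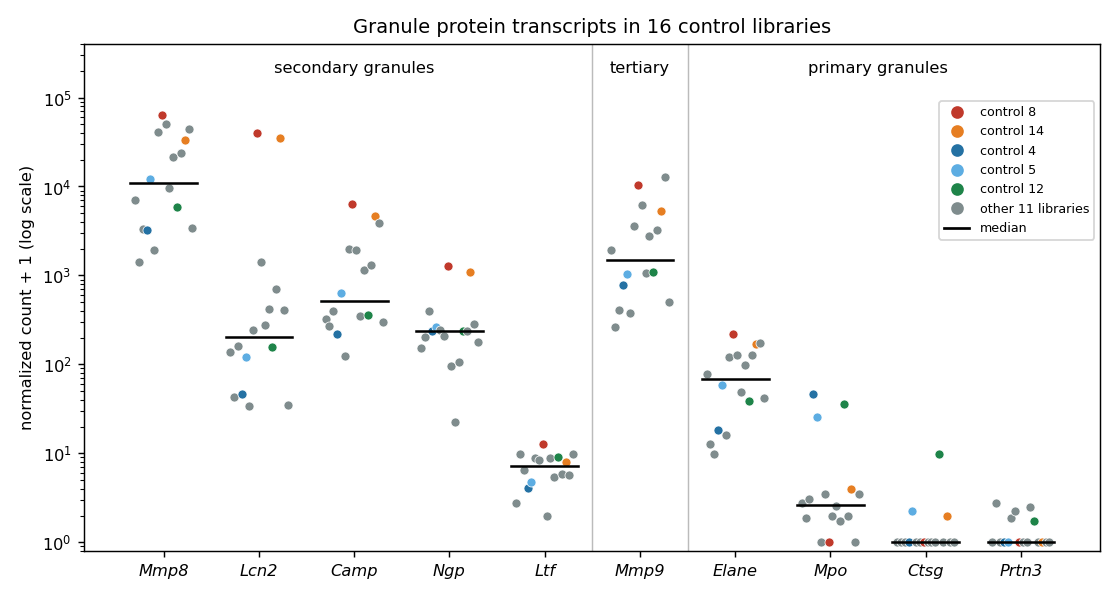
Normalized counts plus 1 (log axis) of the 10 granule protein genes in each of the 16 control libraries, grouped by granule class. Points are single libraries in the order of their numbers, black lines are medians, and colours mark controls 8, 14, 4, 5 and 12. Lcn2 and Ngp show controls 8 and 14 above all others, Mpo shows controls 4, 5 and 12, and Prtn3 and Ctsg lie at or near 0.

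Mmp8, neutrophil collagenase, spanned 1425 normalized counts in control 2 to 63066 in control 8, with a median of 10905 and a mean of 20348 ± 20046 (SD, n = 16). Controls 7, 8, 9, 14 and 15 held at least 33684 and controls 2, 3, 4, 6 and 16 at most 3439, so the range was 44.3-fold. Camp, the cathelicidin antimicrobial peptide precursor, ran from 125 in control 6 through a median of 514 to 6353 in control 8, with a mean of 1512 ± 1869 (SD, n = 16). Control 14 (4686) and control 15 (3867) followed control 8, and the range was 51.0-fold. Mmp9, gelatinase B, ran from 265 in control 2 through a median of 1505 to 12632 in control 15, with a mean of 3221 ± 3711 (SD, n = 16). Here control 15 stood above controls 8 (10366) and 9 (6170), and the range was 47.7-fold.

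Lcn2, the iron-siderophore binding protein lipocalin 2 (NGAL), had the widest range of the 6 well-expressed members. Its level was 40140.5 normalized counts in control 8 and 34711 in control 14, but 32.7 (control 6) to 1427 (control 9) in the other 14 libraries, with a median over all 16 of 202. These 2 libraries held 94.7% of the summed Lcn2 level, and without them the mean fell from 4942 to 301 ± 376 (SD, n = 14). Lcn2 exceeded Camp 6.32-fold in control 8 and 7.41-fold in control 14 in count units, whereas the ratio of counts was 0.105 to 0.786 in every other library. The fold range of Lcn2 over the 16 libraries was 1228. Of these 2 libraries control 8 held Alb and control 14 did not stand out in it, and the part of liver transcripts in the levels was not tested.

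Ngp, the neutrophilic granule protein of the cathelicidin family, was steadier apart from the same 2 rats. It reached 1271 normalized counts in control 8 and 1086 in control 14, followed by 398 in control 3, around a median of 235. Control 10 was lowest at 21.8. Without controls 8 and 14 its coefficient of variation fell from 106% to 45.1%, compared with 125% for Lcn2 and 112% for Camp in those 14 libraries.

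Ltf, the iron-binding protein lactoferrin and classical secondary granule marker, was barely detected. It had 1 to 11 counts per library, 1.00 (control 9) to 11.7 (control 8) normalized counts, with a median of 6.25 and a mean of 6.04 ± 2.89 (SD, n = 16). Its chi-square per degree of freedom, which is 1 when libraries differ by counting error alone, was 1.36, against 2271 for Camp. At this depth a difference in Ltf between rats of the size seen in Camp was not found, and no fold is given for it.

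Elane, neutrophil elastase, was the primary granule gene with counts in every library. It ran from 8.92 normalized counts in control 3 through a median of 67.2 to 220 in control 8, with a mean of 84.3 ± 65.7 (SD, n = 16). Controls 15 (172) and 14 (169) came next, and controls 2, 3, 4 and 6 held at most 17.5, a 24.7-fold range that ordered the libraries much as Mmp8 did.

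Mpo, myeloperoxidase, followed a different set of rats. Its levels were 45.4 normalized counts in control 4, 35.3 in control 12 and 24.8 in control 5, and at most 3.00 in the other 13 libraries, with no count in controls 6, 8 and 15. These 3 libraries held 86.1% of the summed level. Mpo had no count in control 8, where Elane was highest, while control 4, highest in Mpo, had 17.5 normalized counts of Elane. After the levels of Mpo were seen, 12417 genes with a symbol and a mean of at least 5 normalized counts were searched. Only Mpo had a level plus 1 at least 4-fold higher in each of controls 4, 5 and 12 than in every other library. These 3 libraries were picked by their levels of Mpo, so the place of Mpo is no separate result. The mean of Mpo, 7.65, included them, and Mpo passed the cutoff of 5 only through them. The search below on controls 8 and 14 used a higher cutoff of the mean, which Mpo would not have passed.

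Ctsg, cathepsin G, and Prtn3, proteinase 3, complete the primary granule serine proteases and were at or near 0 counts. Ctsg had counts in 3 libraries: 8.83 normalized counts in control 12, 1.24 in control 5 and 1.00 in control 14. Prtn3 had counts in 5 libraries and never exceeded 1.79 normalized counts (control 2), which is below the floor of 3 counts. Controls 12, 5 and 4, the libraries highest in Mpo, differed in tissue markers: Rag1, a lymphocyte recombinase of the thymus, was at 4189 normalized counts in control 12, 14.9 in control 5 and 3.09 in control 4. Myb, a factor of blood cell precursors, was likewise highest in control 12 (444, against a median of 77.2). Control 4 came next in Myb at 137, and control 5 held 66.9. The part of these tissue transcripts in the Mpo and Ctsg levels was not tested.

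Promoter windows are shown for 3 secondary granule genes whose levels moved together (Camp, Mmp8 and Lcn2), for Ngp, whose pairs with them did not pass the test, and for Mpo, which was high in other rats. Each is the 250 bases before the annotated start, 5′ to 3′ on the gene's own strand, from RefSeq on build GRCr8; the deposited counts used build rn5, so these coordinates do not belong to the count files. Capitals mark matches on either strand to TTGCNNAA, a form of the C/EBP motif, and to GAGGAA, the core of the PU.1 motif; both factors are known regulators of granulocyte genes.
Camp, chr8:118721999-118722248, minus strand: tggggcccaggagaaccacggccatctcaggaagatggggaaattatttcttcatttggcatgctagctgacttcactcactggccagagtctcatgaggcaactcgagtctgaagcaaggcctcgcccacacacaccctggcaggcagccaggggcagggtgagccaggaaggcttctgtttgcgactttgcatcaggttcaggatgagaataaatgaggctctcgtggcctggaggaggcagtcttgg
Mmp8, chr8:13008640-13008889, plus strand: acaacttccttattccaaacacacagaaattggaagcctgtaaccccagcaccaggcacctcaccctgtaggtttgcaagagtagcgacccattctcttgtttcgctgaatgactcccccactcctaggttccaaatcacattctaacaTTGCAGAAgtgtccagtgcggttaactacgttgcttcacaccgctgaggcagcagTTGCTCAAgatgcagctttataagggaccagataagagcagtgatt
Lcn2, chr3:36081781-36082030, minus strand: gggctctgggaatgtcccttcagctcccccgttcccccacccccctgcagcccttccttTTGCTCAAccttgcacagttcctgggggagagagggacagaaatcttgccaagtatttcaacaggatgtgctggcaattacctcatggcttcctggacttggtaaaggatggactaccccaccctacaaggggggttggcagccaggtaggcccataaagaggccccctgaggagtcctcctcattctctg
Ngp, chr8:119272355-119272604, plus strand: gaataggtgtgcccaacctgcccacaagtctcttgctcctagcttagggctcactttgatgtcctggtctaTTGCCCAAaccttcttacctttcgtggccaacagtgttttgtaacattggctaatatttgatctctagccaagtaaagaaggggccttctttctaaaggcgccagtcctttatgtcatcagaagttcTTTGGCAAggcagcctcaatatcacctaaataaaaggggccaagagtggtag
Mpo, chr10:73092152-73092401, plus strand: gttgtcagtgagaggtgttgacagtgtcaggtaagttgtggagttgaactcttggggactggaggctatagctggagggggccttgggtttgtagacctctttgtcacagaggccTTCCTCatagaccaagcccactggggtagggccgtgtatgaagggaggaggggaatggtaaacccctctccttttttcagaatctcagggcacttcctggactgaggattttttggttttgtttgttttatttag

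Windows were held for 8 of the 10 members, all but Mmp9 and Elane. TTGCNNAA occurred in the windows of Lcn2, Mmp8 and Ngp, that is in 3 of 5 secondary and 0 of 3 primary granule genes, and in 9.22% of 33469 rat promoter windows of the same length. GAGGAA occurred in those of Mpo, Prtn3 and Ctsg, that is in 3 of 3 primary and 0 of 5 secondary granule genes, and in 23.3% of all windows. The Mmp8 window held TTGCNNAA at 2 places, 101 and 46 bases before the start. Ngp also held 2 matches, although its level did not follow that of Mmp8, and Camp held none, although its level did. A looser C/EBP pattern, TTNNGNAA, which overlaps the first at every match in Lcn2 and Mmp8, occurred in 4 of 8 windows and in 37.2% of all. An NF-kB pattern, GGG and TCC with any 4 bases between them, occurred in Lcn2 and Mpo (15.2% of all windows). Its stricter form, GGG and TTTCC with any 2 bases between them, occurred in 0 of 8 (1.3%), and TATAAA, the core of the TATA box, in Mmp8 and Ctsg (12.9%). These are matches of letters and not sites, and no match says only that the letters are not in this window.

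Of the 6 well-expressed members, 5 correlated with each other over the 16 libraries. Among the 15 pairs of the 6 well-expressed members, 10 pairs were correlated on the log2(normalized count + 1) scale (adjusted p under 0.05, two-sided permutation test with 100000 permutations, Benjamini-Hochberg over 15 pairs). All 10 were positive, and they were all pairs among Camp, Lcn2, Mmp8, Mmp9 and Elane, so secondary, tertiary and 1 primary granule gene rose and fell together. The share of correlated pairs among all genes was not computed. The closest pair of members was Mmp8 with Mmp9 (r = 0.957, rho = 0.953, adjusted permutation p = 2.5e-05 for r). Fpr1 (r = 0.989), Bmx (0.981) and Slc2a3 (0.979), none of them members, followed Mmp8 more closely than Mmp9 did. Moving together was thus not particular to granule protein genes. The primary granule gene Elane correlated with Mmp8 at r = 0.938 (rho = 0.938, adjusted permutation p = 2.5e-05) and with Mmp9 at r = 0.938 (rho = 0.947, adjusted permutation p = 2.5e-05). Camp with Mmp8 gave r = 0.926 (rho = 0.926, adjusted permutation p = 2.5e-05), with Mmp9 r = 0.912 (rho = 0.882, adjusted permutation p = 2.5e-05) and with Elane r = 0.861 (rho = 0.862, adjusted permutation p = 8.6e-05). The raw permutation p of the pairs at 2.5e-05 was 1e-05, the smallest that these permutations can give. Leaving out the 2 libraries farthest from the median of the first gene gave r = 0.940 for Mmp8 with Mmp9, 0.913 for Mmp8 with Elane and 0.825 for Camp with Elane. With levels centred within the codes of the count files, over the 14 libraries whose code occurs more than once, the same 3 pairs gave 0.953, 0.930 and 0.817.

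Because controls 8 and 14 form a cluster of their own in Lcn2 and Ngp, correlations with these genes are given over the other 14 libraries. There Lcn2 gave r = 0.811 with Camp (permutation p = 0.00052), 0.874 with Mmp8 (permutation p = 9e-05), 0.819 with Mmp9 (permutation p = 0.0004) and 0.743 with Elane (permutation p = 0.0025). Ngp gave r = 0.01 with Camp (permutation p = 0.97), -0.20 with Mmp8 (permutation p = 0.54), -0.13 with Mmp9 (permutation p = 0.68) and -0.24 with Elane (permutation p = 0.43). Ngp with Lcn2 gave r = -0.29 there (permutation p = 0.32). So over these 14 libraries, a set chosen after the values were seen, Lcn2 still moved with the other 4 genes of the group, and no pair with Ngp passed the test. With all 16 libraries the highest r of Ngp was 0.51 with Lcn2 (adjusted permutation p = 0.071), then 0.46 with Camp (adjusted permutation p = 0.091). Over all 45 pairs of the 10 members, the number correlated was again 10. Mpo with Elane gave rho = -0.30 (adjusted permutation p = 0.66 over 45 pairs), and Mpo with Ctsg rho = 0.58 (adjusted permutation p = 0.072).

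**Figure D2:**
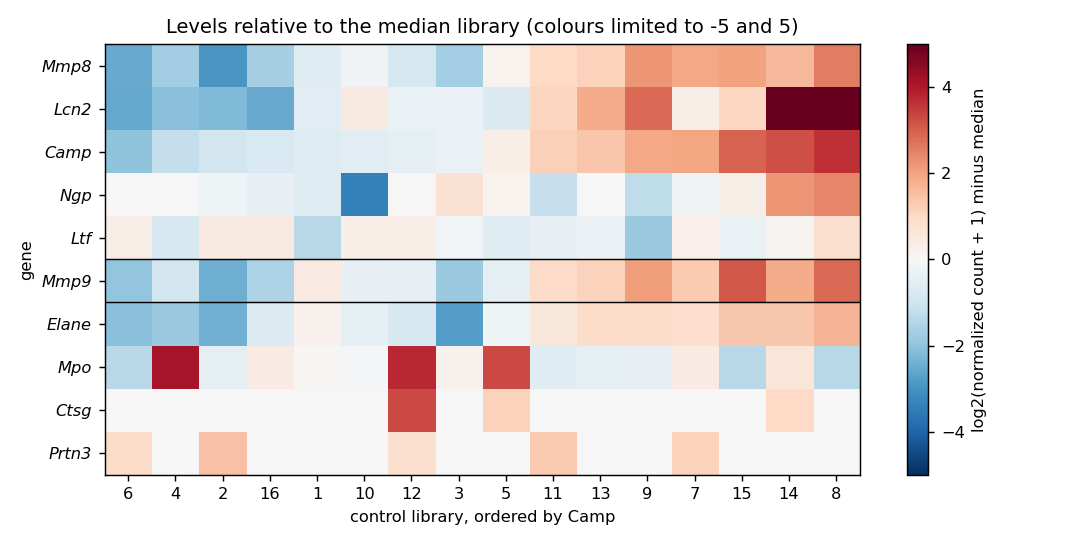
Level of each member in each library as log2(normalized count + 1) minus the member's median, with the 16 libraries ordered from lowest to highest Camp. Mmp8, Lcn2, Camp, Mmp9 and Elane change from blue to red from left to right, Ngp and Lcn2 are highest in controls 14 and 8, and Mpo is red in controls 4, 12 and 5 only.

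To place this beside all genes, each gene's counts were fitted on the log2 level of Camp over the 16 libraries with edgeR's quasi-likelihood test (Benjamini-Hochberg over all genes tested). The slope is the log2 change of a gene per doubling of Camp. All 5 members that passed the low-count filter, besides Camp itself, rose with Camp, against a background of 18.4% of 12760 genes called in either direction, 12.6% higher and 5.76% lower. The slope of Mmp8 was 0.96 ± 0.10 (SE, adjusted p = 6.1e-06) and that of Mmp9 0.89 ± 0.10 (SE, adjusted p = 1e-05), both near a proportional change. Elane had a slope of 0.67 ± 0.10 (SE, adjusted p = 0.00016). Lcn2 had a slope of 1.81 ± 0.19 (SE, adjusted p = 4.3e-06), and 1.04 ± 0.19 (adjusted p = 0.0027) without controls 8 and 14. Ngp had a slope of 0.38 ± 0.12 (SE, adjusted p = 0.037), and -0.011 ± 0.14 (adjusted p = 0.97) without controls 8 and 14, so the call rested on those libraries. In those 14 libraries, where edgeR called 8.85% of genes along Camp, Lcn2, Mmp8, Mmp9 and Elane still rose. Ngp also missed the threshold when control 8 (adjusted p = 0.22) or control 14 (adjusted p = 0.11) was left out alone.

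The 4 low members did not pass the filter and so are not among these 5. Fitted without the filter, Ltf had a slope of 0.02 ± 0.11 (SE, edgeR adjusted p = 0.95) and Mpo of -0.85 ± 0.36 (edgeR adjusted p = 0.14). DESeq2 called Mpo lower with Camp (-0.91 ± 0.34, adjusted p = 0.036) and with Elane (-1.15 ± 0.39, adjusted p = 0.018), where it called 21.3% and 22.3% of genes. The sign was the opposite of that of Elane, and the call depended on the tool. Prtn3 and Ctsg had unfiltered slopes of -0.23 ± 0.27 (edgeR adjusted p = 0.64) and -0.41 ± 0.39 (edgeR adjusted p = 0.55), with most libraries at 0.

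**Figure D3:**
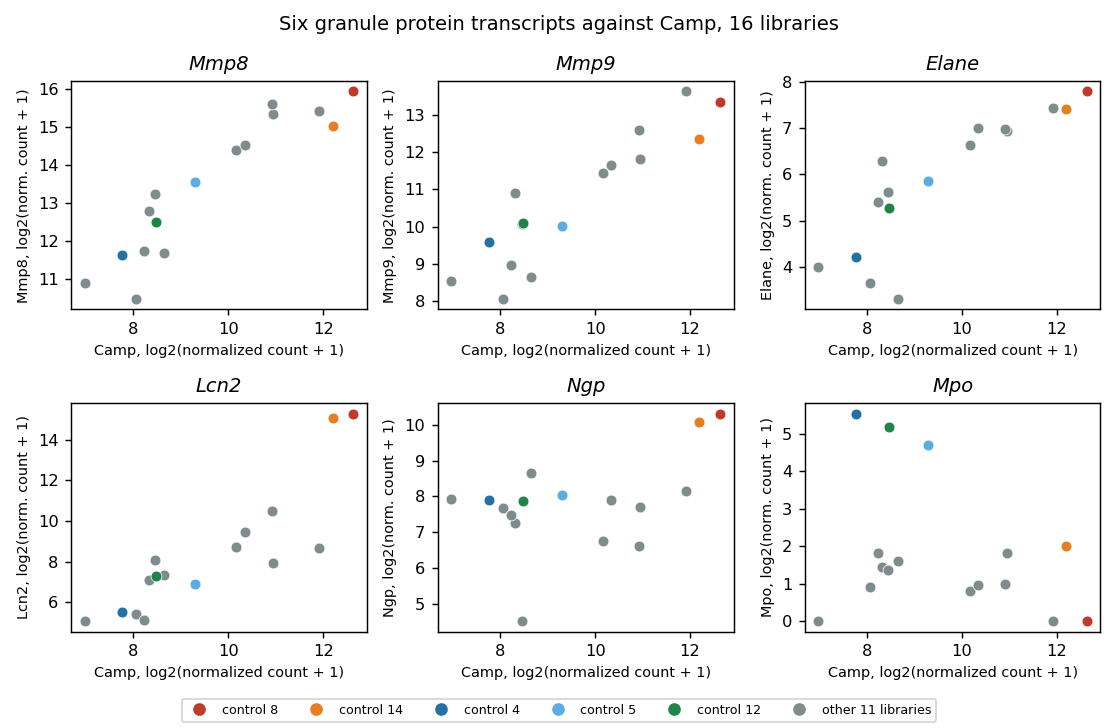
Log2(normalized count + 1) of Mmp8, Mmp9, Elane, Lcn2, Ngp and Mpo against that of Camp; each point is 1 of the 16 libraries. Mmp8, Mmp9 and Elane rise along Camp, Lcn2 adds a step at controls 8 and 14, Ngp is flat but for those 2 libraries and control 10, and Mpo is high only in controls 4, 5 and 12.

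The order was much the same when the reference was a primary granule gene or a surface receptor. Along Elane, 4 of 5 tested members rose, against 21.7% of genes called and 13.2% called higher: Mmp8 (1.13 ± 0.12, SE), Mmp9 (1.13 ± 0.11), Camp (0.99 ± 0.14) and Lcn2 (1.88 ± 0.37), with edgeR adjusted p of at most 0.0016. Ngp was not called along Elane (0.28 ± 0.17, edgeR adjusted p = 0.25). Csf3r, the receptor for granulocyte colony-stimulating factor on neutrophils, is no granule protein. Along Csf3r, 5 of 6 tested members rose, against 21.3% of genes called, 13.4% higher and 7.88% lower: Lcn2 (2.57 ± 0.34, SE), Mmp8 (1.42 ± 0.26), Mmp9 (1.41 ± 0.30), Camp (1.37 ± 0.23) and Elane (1.19 ± 0.17), with edgeR adjusted p of at most 0.0029. Each of these slopes was above 1, that is more than a doubling for each doubling of Csf3r, and whether a slope differs from 1 was not tested. Without controls 8 and 14 the slope of Lcn2 was 0.85 ± 0.21 along Elane and 1.30 ± 0.33 along Csf3r, with edgeR adjusted p of 0.013 and 0.016. Of 4 T cell markers (Cd3e, Cd3d, Cd247 and Cd2), 3 fell along Csf3r, 2 along Elane and 0 along Camp. Of 4 monocyte markers (Csf1r, Cd14, Cd68 and Ccr1), 2 rose along Camp and 2 along Csf3r. Along Camp, 0 of 4 red cell, 0 of 4 platelet, 0 of 4 eosinophil and basophil, 0 of 6 liver, 0 of 1 heart and 0 of 2 thymus markers tested were called, and 1 of 2 fat and 1 of 2 general leukocyte markers rose. Along Csf3r these counts were the same, except that 2 of 4 eosinophil and basophil markers rose. The fat marker that rose was Cfd (0.33 ± 0.10 along Camp, SE, edgeR adjusted p = 0.034), which is also counted with the other granule cargo below. Fabp4, the other fat marker tested, was not called (-0.41 ± 0.35 along Camp, edgeR adjusted p = 0.43). The part of cell composition in the slopes was not tested.

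Other granule cargo rose along Camp as well. Of 27 such genes 24 were listed for every library, 22 were tested and 21 rose, with a median slope of 0.45 against -0.02 over all genes. Without controls 8 and 14, 18 of 22 rose, where 1051 of 12898 genes did. The steepest were Olfm4, a glycoprotein of secondary granules (1.47 ± 0.12, SE), Serpinb1a, an inhibitor of neutrophil proteases (1.30 ± 0.14), and Cd177, a neutrophil surface glycoprotein (1.10 ± 0.11). Olfm4 ran from 51.0 normalized counts to 18470.2 in control 8, with 12693 in control 14. The cargo genes of highest mean, Lyz2 (lysozyme) and Anxa1 (annexin A1), had slopes of 0.29 ± 0.07 and 0.70 ± 0.07. Cybb, the heavy chain of the NADPH oxidase cytochrome, was not called (0.08 ± 0.06, edgeR adjusted p = 0.37). The neutrophil defensins Np4 and RatNP-3b, primary granule peptides with near-identical copies whose reads may be shared out between them, were too low to test; both were highest in control 12, at 26.5 and 12.5 normalized counts.

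**Figure D4:**
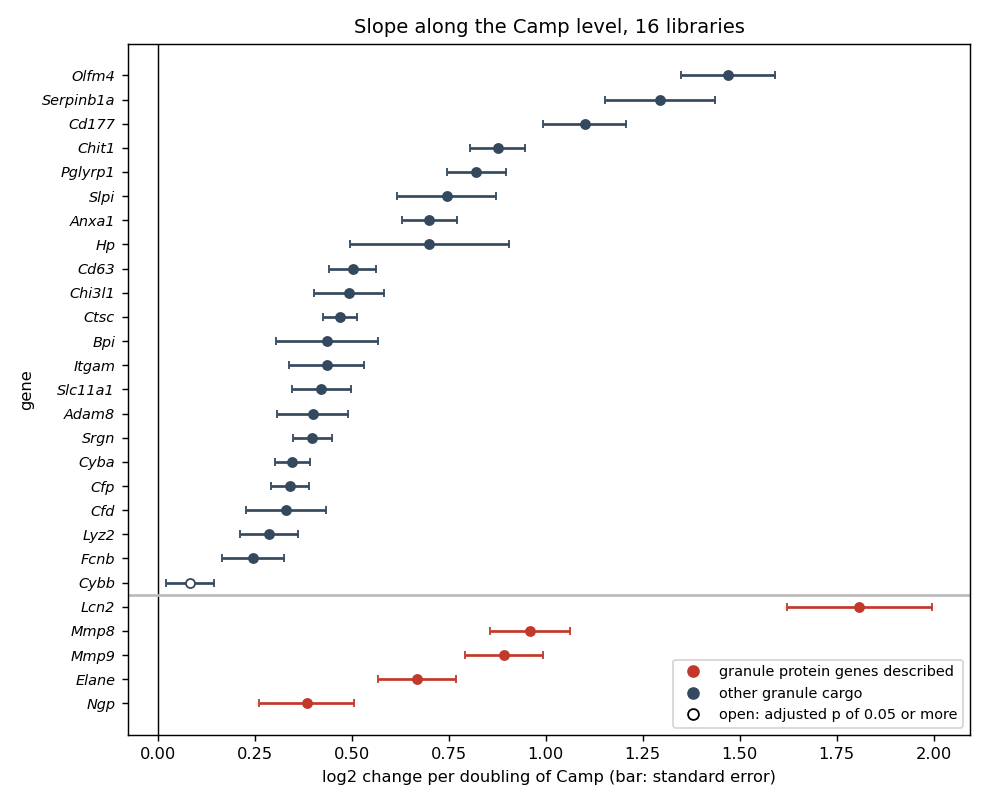
Slope along Camp (log2 change per doubling of Camp, bars are standard errors) for the 5 tested members in red and 22 other granule cargo genes in dark blue, from the fit of 16 libraries. Filled points had an adjusted p under 0.05; Cybb, the open point at 0.08, did not.

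Genes of the mature neutrophil and of its precursors are given beside the same background, 12.6% of all genes rising along Camp; differences between lists were not tested. Of 18 mature neutrophil genes tested 16 rose along Camp (14 without controls 8 and 14), with slopes of 0.90 ± 0.11 for Il1r2, the decoy receptor of interleukin-1, 0.86 ± 0.09 for S100a8, 0.85 ± 0.09 for the formyl peptide receptor Fpr1 and 0.77 ± 0.09 for S100a9. Fcgr3a (-0.15 ± 0.11) and Selplg (0.16 ± 0.06) did not pass the test. Of 8 factors of granulopoiesis, 4 rose (2 without controls 8 and 14), led by Cebpd (0.56 ± 0.07), Spi1, which encodes PU.1 (0.44 ± 0.07), and Cebpb (0.41 ± 0.08). Cebpe, the factor that drives secondary granule genes in precursors, had a slope of 0.01 ± 0.07 (edgeR adjusted p = 0.90) and a level of 14.0 to 47.0 normalized counts. Of 8 proliferation genes 1 rose, a share near that background, namely Rrm2 of ribonucleotide reductase (0.61 ± 0.15), and Mki67 had a slope of -0.16 ± 0.07 (edgeR adjusted p = 0.11). Of 8 inhibitors of granule proteases 4 rose: besides Serpinb1a, these were A2m (0.98 ± 0.31), Slpi (0.74 ± 0.13) and Timp1 (0.72 ± 0.09), the inhibitor of Mmp9. Of these, A2m had a median of 0 normalized counts and up to 724 in a single library. Without controls 8 and 14, 4 of the 8 rose and 1 fell. The background for each count without controls 8 and 14 was 8.85% of 12898 genes called along Camp, 1051 higher and 91 lower.

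The pattern of controls 8 and 14 was looked at across all genes after it had been seen in Lcn2. Among 8374 genes with a symbol and a mean of at least 100 normalized counts, 8 were at least 4-fold higher (level plus 1) in both libraries than in every other. Lcn2, by whose levels the 2 libraries were picked, was at 24.3-fold, so its place is no separate result. It was followed by Car4, carbonic anhydrase 4 (22.7-fold), Irg1, which makes itaconate in activated myeloid cells (20.5-fold), Ebi3, a cytokine subunit (15.4-fold), and Gpr84, a receptor of myeloid cells (13.7-fold). Saal1, Zfhx2 and Gas7 were the remaining 3. The mean of at least 100 included controls 8 and 14. Car4 and Zfhx2 had at most 61.2 and 96.4 normalized counts in any other library, so they passed it only through those 2. Irg1 also passed it only through them, with a mean of 836 over the 16 libraries but 6860 in control 8 and 5541 in control 14. For Ebi3, Gpr84, Saal1 and Gas7 the mean without those 2 libraries was not computed. Ngp was not among them (1086 in control 14 against 398 in control 3), nor was Camp, Mmp8, Mmp9 or Elane. Control 8 also held the highest S100a8 and the lowest T cell marker sum, at 3986 normalized counts against a median of 5724.

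The genes whose pattern was most like each member over the 16 libraries, by Pearson's r of log2 levels among the same 8374 genes, are given as a description. For Mmp8 these were Fpr1 (r = 0.989), Bmx (0.981) and Slc2a3 (0.979), and for Mmp9 they were Dhrs9 (0.978), Hk3 (0.977) and Slc2a3 (0.968). Camp was closest to Adprm (0.970), Mettl9 (0.964) and Ugt8 (0.962), and Elane to C1rl (0.974), Socs3 (0.968) and Ampd3 (0.968). Lcn2 was closest to Zfp281 (0.962), Irg1 (0.954) and Car4 (0.954), with controls 8 and 14 included. The closest genes to Ngp were Cxxc4 (0.816), Slc35b2 (0.788) and Lrrc59 (0.784), lower than for the other 5 members.

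Secondary against primary granules were also compared as sums within each library. The log2 ratio of the summed counts of the 5 secondary to the 4 primary genes had a median of 7.68 and ran from 5.88 in control 4 to 8.97 in control 8 (SD 0.96, n = 16). The size of the ratio depends on transcript lengths that were not divided out, and only its change between libraries is described. The lowest values were in control 4, control 12 (6.33) and control 16 (6.50), and the highest besides control 8 in control 14 (8.74) and control 9 (8.72). Elane made up 27.9% of the primary sum in control 4, 45.5% in control 12 and 68.7% in control 5, where Mpo supplied most of the rest, and at least 81.2% in the other libraries. Mmp8 made up most of the secondary sum at its median (89.6%), while Lcn2 made up 36.2% in control 8 and 46.8% in control 14, and 0.55% to 3.8% elsewhere. Adding the tertiary gene Mmp9 to the secondary sum gave a median of 7.84.

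The count files carry 6 codes in their names, and members were compared between the 3 codes with at least 3 libraries. Code A covers controls 1 to 3, code B controls 4, 5, 7, 8 and 10, and code D controls 11 to 14. What the codes stand for, and whether they follow the repeats of the experiment, is not stated. Camp was 329 ± 68.2 (SD, n = 3) normalized counts in A, 1902 ± 2584 (SD, n = 5) in B and 1871 ± 1922 (SD, n = 4) in D, and Mmp8 was 3958 ± 2909, 25914 ± 25454 and 21237 ± 11527. The ranges of Camp and of Mmp8 overlapped between all 3 codes. edgeR's quasi-likelihood test called 0 of 7 tested members between A and B, 0 between A and D and 0 between B and D, where it called 0%, 0% and 2.3% of 12952 genes. At an unadjusted p under 0.05 the members were 2, 1 and 0 of 7, against 13.6%, 5.41% and 11.3% of all genes tested. The largest of these was Mmp8 between A and B, higher in B by 2.68 ± 0.96 on the log2 scale (SE, edgeR adjusted p = 0.24), and DESeq2, which called 4.34% of genes there, called it (2.71 ± 0.77, adjusted p = 0.016). DESeq2 called no member between A and D or between B and D. It gave no p for Lcn2 in any of the 3 comparisons, so Lcn2 was not tested there by DESeq2. Its DESeq2 change was 6.16 ± 1.95 (SE) between A and B and 6.30 ± 2.03 between A and D. In edgeR the change of Lcn2 between A and B was 6.10 ± 2.85 (SE, edgeR adjusted p = 0.38). With the code as a term in the fit, Mmp8, Mmp9, Elane and Lcn2 had slopes along Camp of 0.91 ± 0.14, 0.80 ± 0.13, 0.67 ± 0.15 and 1.83 ± 0.23 (SE, edgeR adjusted p of at most 0.012), and that of Ngp was 0.45 ± 0.19 (edgeR adjusted p = 0.13).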

How the data were processed

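RNA was measured in whole blood of 16 saline control rats, grouped by their label alone. Per the submitters' processing notes, base calls came from CASAVA 1.8.2, and the authors clipped the reads, aligned them with Bowtie 0.12.9 to an Ensembl transcriptome of build rn5 and deposited expected counts per gene from RSEM 1.2.0, which are not normalized and share out reads that match several transcripts. The deposited expected counts were rounded here to whole numbers, and analysis was limited to 18031 genes present in all files, of 26405 present in at least 1. Totals were 21466776 to 31189549; intervals of counting error are not given since PCR copies are not independent molecules, and the 3-count floor covers counting error only.

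Normalized counts used DESeq2 1.42.0 size factors, and log2 levels a pseudocount of 1. Counts were fitted with edgeR 4.0.16 in R 4.3.3 (TMM, filterByExpr, quasi-likelihood F-test, Benjamini-Hochberg), with the log2 level of Camp, Elane or Csf3r as covariate, or with the file code over 12 libraries. The covariate gene was left out of its own fit. The SE is the change divided by the square root of F. DESeq2 was the alternative. Correlations and figures were made in Python 3.11.15 (pandas 2.3.3, numpy 2.4.6, matplotlib 3.10.9). The code was tested on simulated data.

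The members, gene lists and motifs were chosen with earlier results of these data known. By rule, all 10 members were named, and from each list up to 3 called genes per direction with the largest slope and the 2 of highest mean; other names, such as those set beside Mpo and Lcn2, were chosen after their values were seen. P-values measure only the spread between these animals, in which any difference between repeats of the experiment is not separated. Levels per transcript length were not computed. The results of 1 further marker list are not reported here.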

Additional observations from a re-analysis of the deposited data

How the results depend on the processing

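Of the 14 member slopes called with all 16 libraries, each kept its direction under every alternative run, except that of Ngp along Camp. Without controls 8 and 14, a setting chosen after seeing the data, the slope of Ngp was -0.011 along Camp, -0.16 along Elane and -0.27 along Csf3r. Along Camp, Ngp also missed the threshold under total count scaling (adjusted p = 0.11), without controls 2, 8 and 12 (adjusted p = 0.26) and with the file code as a term (adjusted p = 0.13), and along Csf3r it passed without control 3 (0.67, adjusted p = 0.037). The number of members called was 4 to 6 along Camp, 4 to 5 along Elane and 5 to 6 along Csf3r over the alternatives. Leaving out 1 library at a time gave 4 to 5, 4 to 4 and 5 to 6. Between file codes it gave 0 to 0 members, and DESeq2, which gave no p for Lcn2 there, called 1 between A and B. The correlated pairs were 10 in each other alternative and 10 to 12 with 1 library left out (12 without control 9). The median log2 ratio of secondary to primary counts was 7.67 to 7.70 with 1 library left out, 7.49 without controls 8 and 14 and 7.85 without controls 4, 5 and 12.

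The number of all genes called also changed with the setting. Along Camp, 1611 genes rose and 735 fell; these were 911 and 26 under total count scaling, 1207 and 159 without control 8, 1051 and 91 without controls 8 and 14, and 1079 and 115 without controls 2, 8 and 12. Along Elane 1684 rose and 1088 fell, and 1031 and 121, 1256 and 356, and 1174 and 181 under total count scaling and without those 2 sets of libraries. Along Csf3r 1713 rose and 1006 fell, and 1286 and 67, 1298 and 300, and 1112 and 113 under the same settings. Between B and D, 298 genes were called by edgeR, 6 under total count scaling, 0 without controls 8 and 14, 2 without control 11 or control 14, 765 by DESeq2, and 60 higher and 641 lower without control 4. Between A and B the counts were 0 by edgeR, 506 without control 4 and 568 by DESeq2, and between A and D 0 and 8. The cause was not tested. Depth limits Ltf, Mpo, Prtn3 and Ctsg, whose counts lie near the floor. Levels per transcript length were not run, because the reference tables used here give gene spans and not transcript lengths. No paired analysis was possible because all libraries belong to 1 group.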

Other observations

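Hp, haptoglobin, a plasma protein also stored in neutrophil granules, was high in controls 8 (62891 normalized counts) and 14 (46259), and control 2, the library with the highest liver marker sum, held 24142. Alb, the liver gene of albumin, was at 11402 normalized counts in control 8 and 5.00 in control 14, and the part of liver RNA in the Hp levels was not tested. Its slope along Camp was 0.70 ± 0.21 (SE, edgeR's quasi-likelihood test, adjusted p = 0.025). Cdk1 and Top2a, genes of dividing cells, were highest in control 12 (178 and 612 normalized counts), the library with the highest thymus marker sum and with Mpo, Ctsg, Np4 and RatNP-3b counts. In controls 4 and 5, the other two libraries high in Mpo, Top2a was 35.1 and 47.1, near its median of 60.0.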
